A study of Mus musculus with 8 samples.

Results

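The proteins of the small subunit of the cytosolic ribosome were followed through their transcripts in early mouse embryos. The set was defined by name: 28 genes, Rpsa, Rps2, Rps3, Rps3a1, Rps4x, Rps6, Rps7, Rps9, Rps10, Rps12, Rps13, Rps14, Rps15, Rps15a, Rps16, Rps18, Rps19, Rps20, Rps21, Rps23, Rps24, Rps25, Rps26, Rps27, Rps27a, Rps28, Rps29 and Fau, out of 52636 gene identifiers in the count table. Each of the 28 was found by its symbol, and each passed the filter on low counts, so that none of the set was lost before testing.

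The embryos were wild-type, from B6C3F1 and CD1 parents, and were collected as zygotes after mating in vivo. At 15 h after hCG, ZP3 Trim-away zygotes were microinjected with mCherry-Trim21 mRNA, Oregon Green dextran (OGDB) and an antibody against zona pellucida protein 3 (anti-ZP3). Trim-away is a method in which the ubiquitin ligase TRIM21 binds the antibody and sends the antibody together with its target protein to the proteasome. The buffer group, labelled Trim21 overexpression, received the same mRNA and OGDB with the buffer of the antibody in its place. One library was of non-manipulated embryos. The table holds 3 ZP3 Trim-away, 4 buffer and 1 non-manipulated library, by the sample labels, each made from the total RNA of a pool of embryos. The injected embryos were sampled about 24 h after injection. The text of the study gives the sizes of the 2 injected groups the other way round, and the labels were followed. The labels place the ZP3 Trim-away embryos at stage E0.5 and the others at E1.5, so that the loss of ZP3 protein and the stage reached cannot be told apart in this comparison. In such bulk samples, levels are relative to the counts of each library. Neither the number of cells nor the amount of RNA per cell can be read from them.

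The libraries held 13228428 to 15379933 gene counts under the Trim-away label, 17615416 to 22427747 in buffer and 22248022 in non-manipulated embryos. Levels are given as CPM, counts relative to the scaled library size. The antibody acts on the protein, so the Zp3 transcript is no check of the treatment, but the injected Trim21 mRNA is. It was read at 957 to 8646 CPM in the buffer group, and at 0 without injection. ZP3 Trim-away library 1 held 2124 CPM of Trim21, whereas libraries 2 and 3 held 0 and 3.53, which goes against their labels. The 3 are therefore called Trim-away-labelled libraries, and the main counts are also given with library 1 alone and without it. Transcripts of blood, sperm, oviduct and cumulus cells were scarce: the summed level of each marker list was at most 48.8 CPM in any library. The cumulus list reached 14.3 to 48.8 CPM in the Trim-away-labelled libraries and 1.26 to 20.98 CPM in the buffer group, and its part in the results was not tested. Of 11 oocyte and embryo markers tested, 3 were higher under the Trim-away label and none was lower, and their summed level was 10784 to 15175 CPM there and 13965 to 24001 CPM in the buffer group. None of 9 markers of the two-cell stage tested passed, beside 6.9% of all genes tested. The summed level of these markers was 1413 to 1692 CPM under the Trim-away label and 454 to 1009 CPM in the buffer group.

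The small subunit reads the mRNA. It is built in the nucleolus from a single ribosomal RNA and a fixed set of proteins, is finished in the cytoplasm, and binds initiation factors and the initiator tRNA before it scans for the start codon. Its proteins are needed in equal numbers, and their mRNAs typically begin with a C followed by a run of pyrimidines, the terminal oligopyrimidine (TOP) tract, by which their translation is controlled as a group. The mouse zygote inherits ribosomes and ribosomal protein mRNA from the oocyte and resumes transcription of its own around the first cleavage.

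To show this feature, 30 bases centred on the transcription start are printed for 6 members called lower that have a long run and, for contrast, for 3 members without one. The printed members were picked by their run, so they do not show how often a run goes with a fall. They were read from RefSeq (build GRCm38.p6), at the most 5′ start listed for each gene, 5′ to 3′ on the gene's own strand. The longest run of C and T in the window is in capitals.
Fau (chr19:6057932-6057961, plus strand): tgcgcgcccccaCTTCTTCCTCTTTCTTga
Rps18 (chr17:33955651-33955680, minus strand): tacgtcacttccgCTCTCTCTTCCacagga
Rps24 (chr14:24490663-24490692, plus strand): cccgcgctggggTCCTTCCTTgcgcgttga
Rps6 (chr4:86857353-86857382, minus strand): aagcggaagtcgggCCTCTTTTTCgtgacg
Rps26 (chr10:128626492-128626521, minus strand): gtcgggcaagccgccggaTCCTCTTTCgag
Rps9 (chr7:3704026-3704055, plus strand): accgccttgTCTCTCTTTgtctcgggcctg
Rps3 (chr7:99483695-99483724, minus strand): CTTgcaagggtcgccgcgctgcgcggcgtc
Rps3a1 (chr3:86142654-86142683, minus strand): TTaaagccggaagggcgaaagagcaagggt
Rps2 (chr17:24720048-24720077, plus strand): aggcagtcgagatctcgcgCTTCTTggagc
The run reached 16 bases in Fau and 11 in Rps18, and only 3 in Rps3, although the start that RefSeq lists need not be the one used in the embryo. Of 24 members with a promoter in the RefSeq table, 11 had a run of at least 8 pyrimidines within 50 bases around the start, or 45.8%, beside 18.4% of 9210 genes tested and 50% of 34 large subunit proteins. A run was present in members that fell (Fau, Rps18) and in members that did not pass the test (Rps10, Rps15a), and members without a run were found on both sides as well (Rps3 and Rps3a1).

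Upstream of the start, 4 short motifs were searched on both strands of the 300 bases from 250 before to 50 after it. The ETS motif CCGGAAG was present in 10 of 24 members, or 41.7%, beside 18.1% of the genes tested and 38.2% of 34 large subunit proteins. The YY1 motif AAGATGGC was in 3 of 24, or 12.5%, beside 4.85% of the genes tested and 8.82% of the large subunit proteins. The GC box GGGCGG was in 54.2% of members, beside 61% of the genes tested and 64.7% of the large subunit proteins. TATAAA was in 2 of 24, or 8.33%, beside 7.79% and 11.8% in the same order. The 100 bases before the start are printed for Rps18, the member with the largest fall, and for Rps21, which holds CCGGAAG at 2 places, with the motif in capitals.
Rps18 (chr17:33955666-33955765, minus strand): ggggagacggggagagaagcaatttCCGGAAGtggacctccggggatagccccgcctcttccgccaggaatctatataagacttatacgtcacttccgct
Rps21 (chr2:180257279-180257378, plus strand): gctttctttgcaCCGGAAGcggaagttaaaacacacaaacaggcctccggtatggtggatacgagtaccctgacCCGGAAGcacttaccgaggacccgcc
These matches describe the letters of the promoters and were not measured as binding.

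The first question was what share of each library the small subunit messages took. The 28 transcripts summed to 4286, 3908, 3828 and 5195 CPM in the 4 buffer libraries and to 4005 CPM in the non-manipulated library. In Trim-away-labelled libraries 1, 2 and 3 they summed to 855, 1846 and 1623 CPM. Every one of these 3 libraries was below every other library, and the group means were 4304 ± 626 CPM (SD, n = 4) and 1441 ± 520 CPM (SD, n = 3). As a share of all gene counts, the members took 0.397% to 0.480% in the buffer group, 0.414% in the non-manipulated library and 0.0753%, 0.185% and 0.170% in ZP3 Trim-away libraries 1, 2 and 3. Library 1, the one with injected Trim21 mRNA, held the least. No p is given for such sums.

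**Figure D1:**
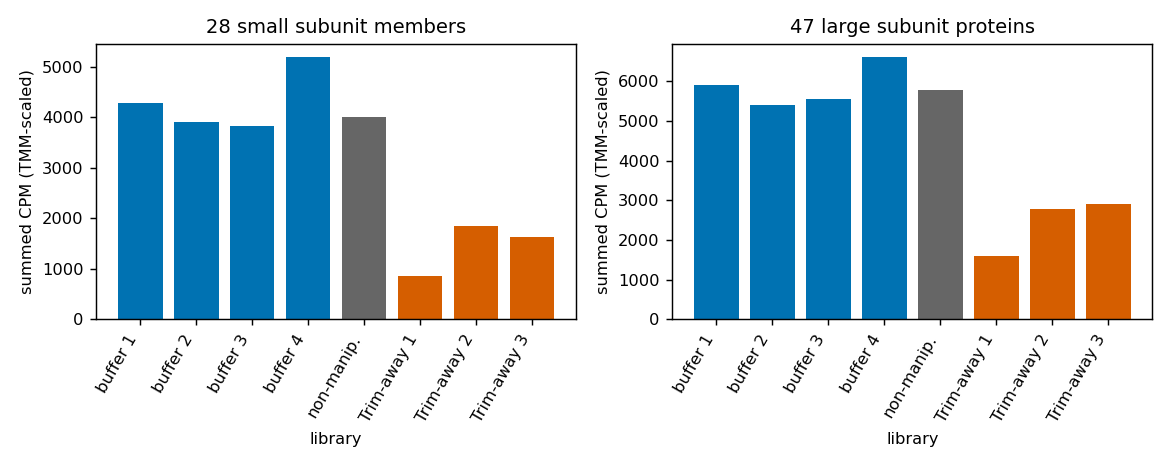
Summed CPM (TMM-scaled, vertical axes from 0) of the 28 small subunit members (left) and of 47 large subunit proteins (right), 1 bar per library, coloured by group. The 3 Trim-away-labelled libraries sit at 855 to 1846 CPM for the small subunit, under the lowest buffer library at 3828 CPM.

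Gene by gene, 14 of the 28 members were called lower in the Trim-away-labelled libraries than in the buffer group and none was called higher (quasi-likelihood test of edgeR, Benjamini-Hochberg adjusted p under 0.05 over 13641 genes). Across all genes tested, 3.91% were called lower and 2.98% higher, 6.9% in all. For the 28 members, 23 had an unadjusted p under 0.05, all of them lower, beside 12.3% lower among all genes tested. The fitted log2 fold change was negative for each of the 28 (51% of all genes), it was beyond a fold of 2 for 24 of them (28.4% of all genes), and its median was -1.69 beside -0.04 over all genes. In 25 members, every Trim-away-labelled library was below every buffer library, a pattern that 15.5% of all genes tested showed.

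**Figure D2:**
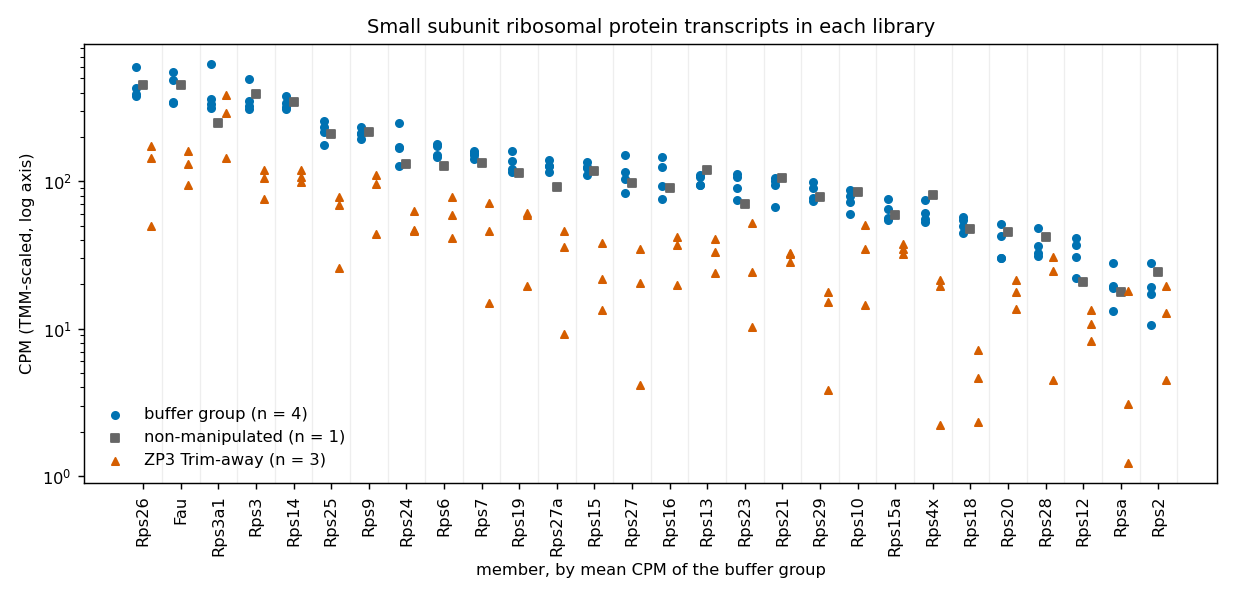
CPM (TMM-scaled, log axis) of each member in each of the 8 libraries, with members ordered by the mean of the buffer group; circles are the 4 buffer libraries, the square the non-manipulated library and triangles the 3 Trim-away-labelled libraries. The triangles lie under all circles in 25 members, and overlap them in Rps3a1, Rpsa and Rps2.

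The number of calls depended on which libraries were compared. With ZP3 Trim-away library 1 alone, 18 members were called lower (5.12% of all genes then tested) and the median log2 fold change was -2.46, beside -1.24 over all genes. There the lone library was assumed to vary like the buffer libraries. Without library 1, 15 members were called lower (3.06% of all genes then tested) and the median was -1.48. The count fell to 4 without Trim-away library 2, to 6 without Trim-away library 3, to 6 without buffer library 1, 2 or 4, and to 7 without buffer library 3. Over the same 6 fits, the calls among all genes fell from 941 to between 408 and 573. Rps14, Rps3 and Fau were called lower in all 7 fits that left out a library. By other tools, 23 members were called lower by DESeq2, where 7.21% of all genes tested were called lower, 17 by limma-voom, where 5.05% were, and 20 by limma on log2(RPKM + 0.1), where 8.32% were. When a block for the replicate number was put in the edgeR fit, 0 members and 0 of 13641 genes were called.

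Proteins of the head of the subunit, which swivels during translocation, are taken first, then those of the body and platform, a grouping from textbook structures made with the values known. Of 12 head proteins, 6 were called lower, with a median log2 fold change of -1.82. Of 16 proteins of the body, 8 were called lower, with a median of -1.64. No test of the difference was made.

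Rps18, a head protein on the side that faces the large subunit, fell the most of the 28. The 4 buffer libraries held 57.4, 49.5, 54.3 and 44.5 CPM and the non-manipulated library 47.3, against 2.32, 4.604 and 7.20 CPM in Trim-away-labelled libraries 1 to 3. The groups were far apart, with a log2 fold change of -3.45 ± 0.62 (SE, edgeR adjusted p = 0.0152). The gene is at chr17:33951999-33956001 on the minus strand and shares 156 exon bases with Vps52. Of the 72-base stretches of its transcript, 79.6% occur in a transcript of another gene, so part of its reads is hard to assign.

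Rps29, a small zinc-binding head protein, was the next largest fall. Its 4 buffer libraries held 89.9, 77.3, 73.1 and 98.4 CPM, and the non-manipulated library held 78.1 CPM. Under the ZP3 Trim-away label it was at 3.87, 15.2 and 17.7 CPM, all below the buffer range, and its log2 fold change was -2.78 ± 0.58 (SE, edgeR adjusted p = 0.0258).

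Rps15, which sits in the head near the decoding site and is needed late in the maturation of the subunit, held 123, 136, 111 and 125 CPM in the buffer group. In Trim-away-labelled libraries 1 to 3 it held 13.4, 38.3 and 21.8 CPM, with no overlap between the groups. Its log2 fold change was -2.34 ± 0.43 (SE, edgeR adjusted p = 0.0160).

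Rps3 lines the entry of the mRNA channel and also acts in DNA repair. It was at 349, 324, 307 and 496 CPM in the buffer libraries and at 76.2, 119 and 105 CPM in Trim-away-labelled libraries 1 to 3. The highest of these was under the lowest buffer library by more than the whole spread of the 3, and the log2 fold change was -1.89 ± 0.28 (SE, edgeR adjusted p = 0.00903). Rps3 (chr7:99477896-99483738, minus strand) also had the smallest share of 72-base stretches of its transcript that occur in a transcript of another gene, at 0.0544%. It shares 145 exon bases with Snord15b.

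Rps25, in the head, and known for its part in initiation at viral internal ribosome entry sites, held 233, 216, 177 and 258 CPM in the buffer libraries. In the Trim-away-labelled libraries it was at 25.7, 78.9 and 68.96 CPM, each under the buffer range, and the log2 fold change was -1.93 ± 0.41 (SE, edgeR adjusted p = 0.0271). It shares 668 exon bases with Ccdc84 and Trappc4. Rps16, whose tail reaches towards the tRNA in the P site, was at 125, 76.0, 93.6 and 147 CPM in the buffer libraries and at 19.8, 42.0 and 37.1 CPM under the Trim-away label. It was the head protein nearest to the threshold among those called, at -1.74 ± 0.42 (SE, edgeR adjusted p = 0.0421).

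Of the 6 head proteins that did not pass, Rps27a was closest, at -2.06 ± 0.53 (SE, edgeR adjusted p = 0.0502). It is made as a fusion with ubiquitin and is one source of the ubiquitin of the cell. The mean CPM of Rps27a was 127 ± 9.81 (SD, n = 4) in the buffer group and 30.5 ± 19.05 (SD, n = 3) under the Trim-away label. Rps19, whose human counterpart is the gene most often mutated in Diamond-Blackfan anaemia, had a log2 fold change of -1.53 and an edgeR adjusted p of 0.0704. Rps12 had -1.61 (edgeR adjusted p = 0.160), Rps10 -1.18 (0.199), Rps20 -1.14 (0.264) and Rps28 -0.89 (0.550). Their libraries did not overlap between the groups in any of the 6. Rps28 was at 4.47 CPM in library 1 and at 30.5 and 24.8 CPM in libraries 2 and 3, with a lowest buffer library of 31.0 CPM.

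Rps12 and Rps20 were also among the 4 members with the lowest mean CPM. Rps12, of the beak of the head, was at 30.9, 22.2, 41.0 and 37.1 CPM in the buffer libraries, at 20.8 CPM in the non-manipulated library and at 8.25, 10.8 and 13.3 CPM under the Trim-away label. Rps20 was at 30.3, 42.5, 30.2 and 51.7 CPM in the buffer libraries and at 13.7, 17.6 and 21.3 CPM under the Trim-away label. Both were low in all 3 libraries, and neither passed the test.

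**Figure D3:**
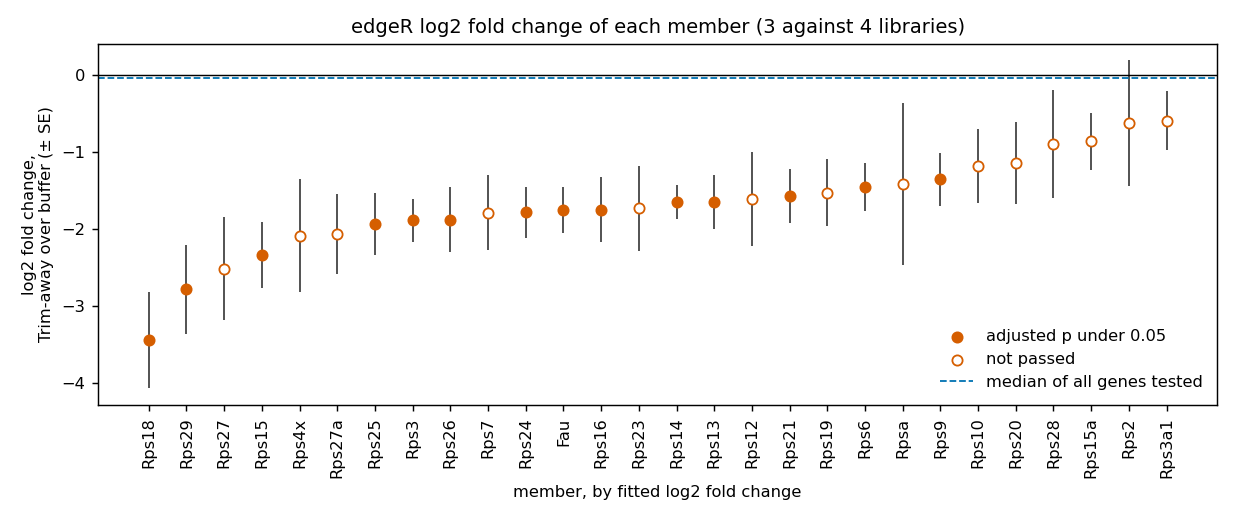
Fitted log2 fold change of each member (Trim-away label over buffer group, 3 against 4 libraries, bars ± SE), ordered by size; filled circles passed an adjusted p of 0.05 and the dashed line is the median of all genes tested at -0.04. Values run from -3.45 (Rps18) to -0.59 (Rps3a1), and every point is under the dashed line.

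In the body, Rps14 gave the smallest p. It lies on the platform near the mRNA exit, and haploinsufficiency for its human counterpart underlies the anaemia of the 5q- syndrome. Its 4 buffer libraries held 342, 321, 312 and 377 CPM and the non-manipulated library 343 CPM, against 99.1, 119 and 107 CPM under the Trim-away label. Both groups were tight, and Rps14 was at 29.3%, 35.1% and 31.7% of the mean of the buffer group in libraries 1, 2 and 3. Its log2 fold change was -1.64 ± 0.22 (SE, edgeR adjusted p = 0.00660).

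Fau encodes Rps30 fused to a ubiquitin-like protein, which is cleaved off. It was at 486, 337, 345 and 551 CPM in the buffer libraries and at 94.1, 159.8 and 130.1 CPM in the Trim-away-labelled libraries. No library of this label came near the buffer range, and the log2 fold change was -1.75 ± 0.30 (SE, edgeR adjusted p = 0.0126). The other member made as a fusion, Rps27a, also had every library of this label under the buffer range.

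Rps26, at the mRNA exit, where it contacts the bases upstream of the start codon, held 432, 391, 382 and 595 CPM in the buffer libraries. The level was 49.4, 175 and 143 CPM in Trim-away-labelled libraries 1, 2 and 3, which puts library 1 far under the other two, and all 3 were below the buffer group. The log2 fold change was -1.88 ± 0.42 (SE, edgeR adjusted p = 0.0334). Tsr2, the chaperone that brings Rps26 to the subunit, had no count in any of the 3 Trim-away-labelled libraries, as described with the assembly factors.

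Rps24, which binds early to the forming subunit, was at 172, 126, 169 and 249.97 CPM in the buffer libraries and at 46.8, 46.3 and 63.3 CPM under the Trim-away label. The 3 values were close to each other and well below the buffer range (log2 fold change -1.78 ± 0.33, SE, edgeR adjusted p = 0.0167). Rps6, the protein of the subunit that S6 kinase phosphorylates downstream of mTOR, was at 146, 178, 150.3 and 175 CPM against 41.0, 59.3 and 77.8 CPM. Its log2 fold change was -1.45 ± 0.31 (SE, edgeR adjusted p = 0.0294).

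Rps13 was at 111, 94.7, 94.1 and 107 CPM in the buffer libraries and at 24.1, 40.7 and 33.1 CPM under the Trim-away label. It is a platform protein and holds the snoRNA Snord14a within its gene, with 87 shared exon bases. Its log2 fold change was -1.64 ± 0.35 (SE, edgeR adjusted p = 0.0288), with no overlap of the groups. Rps21, a small protein next to Rpsa, was at 94.7, 67.2, 99.8 and 105 CPM in the buffer libraries and at 28.4, 31.9 and 32.4 CPM under the Trim-away label. The 3 low values of Rps21 lay within a narrow range, and the log2 fold change was -1.57 ± 0.36 (SE, edgeR adjusted p = 0.0338).

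Rps9, which binds early in assembly, was on the threshold. It held 211, 232, 194 and 213 CPM in the buffer libraries and 44.1, 95.7 and 109.9 CPM under the Trim-away label, again without overlap. The log2 fold change was -1.35 ± 0.34 (SE, edgeR adjusted p = 0.049998), so that Rps9 was the last member inside the threshold and Rps27a the first outside it.

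Among the 8 members of the body that did not pass, Rps27, a zinc-finger protein, had the largest fold, with a log2 fold change of -2.51 ± 0.67 (SE, edgeR adjusted p = 0.0559). It was at 4.12 CPM in library 1, and at 35.0 and 20.4 CPM in libraries 2 and 3, against a buffer mean of 113 ± 27.8 CPM (SD, n = 4). Rps27 is at the same time the least certain member, because 98.5% of the 72-base stretches of its transcript occur in a transcript of another gene. Rps7 had -1.79 (edgeR adjusted p = 0.0617), Rps23 of the decoding centre -1.73 (0.102), the X-linked Rps4x -2.08 (0.136) and Rps15a -0.86 (0.227). In these 4, as in Rps27, the 2 groups of libraries did not overlap.

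The 3 members whose groups did overlap were all of the body. Rps3a1, which has the largest share of the sum under the Trim-away label, was at 315, 364, 334 and 626 CPM in the buffer libraries, at 248 CPM in the non-manipulated library, and at 144, 383 and 291 CPM in libraries 1, 2 and 3. Library 2 lay inside the buffer range, and the log2 fold change was -0.59 ± 0.38 (SE, edgeR adjusted p = 0.448), the smallest of the set. Without library 1 the log2 fold change of Rps3a1 was -0.29, and with library 1 alone it was -1.54.

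Rpsa, which is also known as the laminin receptor precursor, had the lowest mean CPM of the set. It was at 28.05, 13.3, 18.8 and 19.4 CPM in the buffer libraries and at 3.09, 1.23 and 18.1 CPM under the Trim-away label. One library of this label was thus as high as the buffer group, and the log2 fold change was -1.41 ± 1.05 (SE, edgeR adjusted p = 0.522). Rps2, at the mRNA entry, was at 10.7, 19.3, 17.1 and 27.9 CPM in the buffer libraries and at 4.47, 12.8 and 19.3 CPM under the Trim-away label. Its log2 fold change of -0.62 ± 0.81 (SE, edgeR adjusted p = 0.754) was within the error. Both genes have many near-identical pseudogenes, to which part of their reads may belong.

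The 3 Trim-away-labelled libraries did not lose the same amount. The median member was at 18.6% of the mean of the buffer group in library 1, at 36.9% in library 2 and at 34.4% in library 3. Library 1 was the lowest of all 8 libraries in 25 members, a place it held in 20.5% of all genes tested, and library 2 was the lowest in the remaining 3 (Rps24, Rps15a and Rpsa). The ratio of the highest to the lowest of these 3 libraries had a median of 2.96 over the members, beside 2.72 over all genes tested, and it ran from 1.14 (Rps21) to 14.7 (Rpsa). In the 4 buffer libraries the same ratio had a median of 1.48 over the members and 2.95 over all genes tested.

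**Figure D4:**
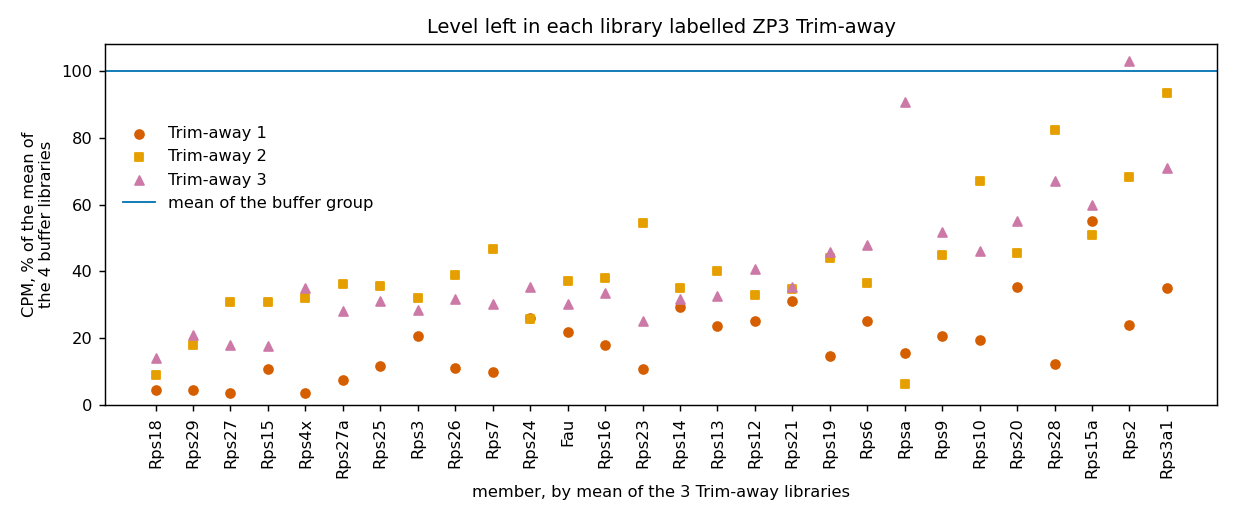
Level of each member in each of the 3 Trim-away-labelled libraries, as a percent of the mean of the 4 buffer libraries (vertical axis from 0, line at 100%), ordered by the mean of the 3. Library 1, the one with reads of the injected Trim21 mRNA, is the lowest for most members, with a median of 18.6%.

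Levels of different members can be compared per kb of coding sequence. On this scale the buffer group held most of Rps26 (1304 ± 287 CPM per kb, SD, n = 4), Fau (1077 ± 265) and Rps14 (746 ± 64.2), and least of Rps2 (21.3 ± 8.10) and Rpsa (22.5 ± 6.89). The first and second did not differ beyond their spread, nor did the last and the last but one. Proteins that the subunit needs in equal number had transcript levels that differed widely. The part of reads lost to near-identical copies in this order was not tested. The order of the members per kb in the buffer group and under the Trim-away label had a Spearman correlation of 0.853 across the 28 genes, which share libraries and are not independent replicates.

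Within the sum of the 28, some members gained and others lost share. Rps3a1 made up 7.3%, 9.3%, 8.7% and 12.0% of the sum in the buffer libraries, 6.2% in the non-manipulated library and 16.8%, 20.7% and 17.9% in Trim-away-labelled libraries 1 to 3. Its share was thus higher in every library of this label while its level in CPM overlapped with the buffer group. Rps18 went the other way, from a mean share of 1.22% to 0.321%, and Rps29 from 1.97% to 0.790%. The share of Rps14 was 7.3% to 8.2% in the buffer libraries and 11.6%, 6.4% and 6.6% in Trim-away-labelled libraries 1, 2 and 3, above the buffer range in one and below it in the others.

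Non-manipulated embryos show where the buffer group stands. In the single library, the members were at 60.6% to 132% of the mean of the buffer group, with a median of 94.1%. The value lay within the range of the 4 buffer libraries for 19 of 28 members, beside 62.2% of all genes tested, was under it for 7 and over it for 2. The lowest was Rps3a1 and the highest Rps4x. With 1 library there is no test of this difference.

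The genes around the small subunit were described from lists chosen with earlier results known, and their counts stand beside the 3.91% of all genes tested that were called lower. The large subunit, which forms the peptide bond, moved in the same direction. Of 47 proteins tested, 11 were called lower, none higher, and the median log2 fold change was -1.48. Rpl35, beside the exit of the nascent chain, was at 132 to 208 CPM in the buffer libraries and at 23.6 to 39.8 CPM under the Trim-away label (log2 fold change -2.57, edgeR adjusted p = 0.00612). The summed level of the small subunit divided by that of the large was 0.725, 0.723, 0.688 and 0.786 in the buffer libraries, 0.693 in the non-manipulated library and 0.536, 0.661 and 0.558 in Trim-away-labelled libraries 1 to 3. All 3 were under the lowest buffer library. No p is given for this ratio of sums.

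In the mitochondrial small subunit, which is encoded in the nucleus and serves a separate ribosome, 2 of 30 genes tested (Mrps11 and Mrps18b) were called lower, none higher, with a median log2 fold change of -0.99. This is a share of 6.67% called lower, beside 3.91% over all genes tested. At this number of genes, that difference in calls is too small to read as a result by itself. In 12 of the 30, every Trim-away-labelled library was below every buffer library, beside 15.5% of all genes tested. The log2 fold change was negative in 24 of the 30, beside 51% of all genes tested. Late assembly factors of the cytosolic small subunit were mixed, with 5 of 15 lower and 1 higher. Pno1, a factor that stays on the subunit until its last steps, fell from 743 to 1161 CPM in the buffer libraries to 174 to 298 CPM under the Trim-away label (log2 fold change -1.89, edgeR adjusted p = 0.00820). Tsr2 was at 25.6 to 63.8 CPM in the buffer libraries and had no count in the 3 others, which is at least 606-fold lower when 3 counts over the group are taken as the floor. Riok1, a kinase of the last steps of maturation that was singled out after its values were seen, rose from 43.1 to 146 CPM in the buffer libraries to 874, 344 and 323 CPM in libraries 1, 2 and 3 (log2 fold change 2.29, edgeR adjusted p = 0.0300).

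Of 24 factors that join the small subunit at initiation, 3 were called lower (Eif3m, Eif2s1 and Eif3h) and none higher, with a median log2 fold change of -0.95. Eif3m, a subunit of the scaffold eIF3, had a log2 fold change of -2.51 (edgeR adjusted p = 0.0147), and Eif2s1, the alpha subunit of eIF2, one of -1.24 (0.0180). Of 14 genes that act on TOP mRNAs or cap binding, 4 were called lower (among them Cnbp, Larp1b and Tial1) and none higher, with a median of -1.02. Cnbp, which binds the start of TOP mRNAs, was at 1174 to 1624 CPM in the buffer libraries and at 607, 263 and 408 CPM in libraries 1, 2 and 3.

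Level and length moved with the result across the genes tested that have a coding length. Only these genes are counted in the quintiles below. Of the members, 19 belong to the highest quintile of genes by mean CPM in the buffer group (from 82.2 CPM). In this quintile the median log2 fold change of all genes was -0.46, and 18.3% of genes were called lower. In 37.9% of its genes, every Trim-away-labelled library was below every buffer library. The 19 members had a median of -1.75. In the lowest quintile by level, which holds no member, the median over all genes was 1.03. The mean of the buffer group also enters the fold change. By construction, an order by this mean therefore leans low quintiles towards positive values and high quintiles towards negative ones. By coding length, 22 members belong to the shortest quintile (up to 708 bases), with a median of -0.59 over all genes of the quintile and -1.74 over the 22 members. In the longest quintile the median over all genes was 0.41. The part of level and length in the fall of the members was not tested.

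**Figure D5:**
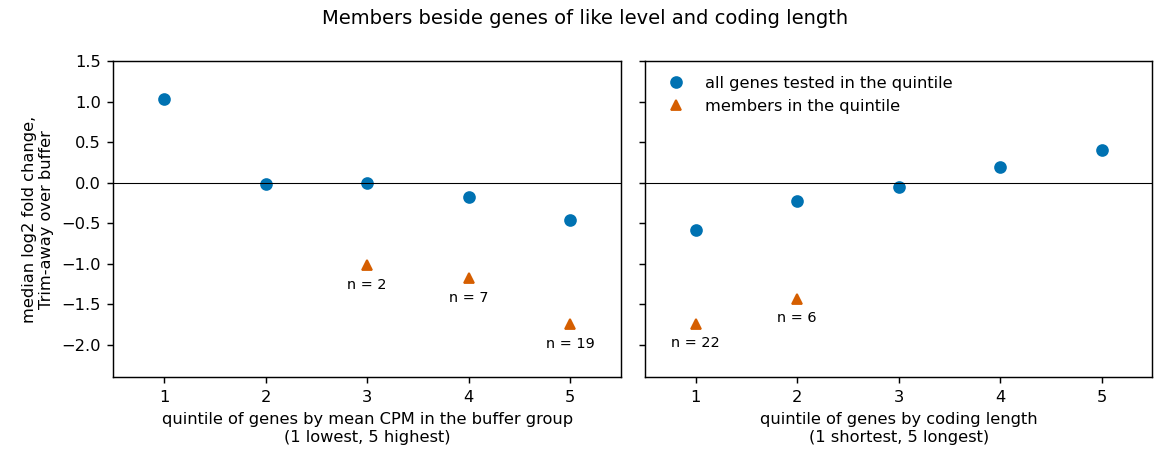
Median log2 fold change (Trim-away label over buffer group) in quintiles of genes by mean CPM in the buffer group (left) and by coding length (right). Circles are all genes tested that have a coding length, and triangles the members, with their number given. The members lie below the circles in each quintile that holds any, at -1.75 beside -0.46 in the quintile of highest level.

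Ribosomal protein genes have many processed copies in the mouse genome, and a read that fits several places is hard to assign. Over the 28 transcripts, the share of 72-base stretches, the length of the reads, that also occur in a transcript of another gene ran from 0.0544% (Rps3) to 98.5% (Rps27), with a median of 47.8%. The median was 31.7% in the 14 members called lower and 53.7% in the other 14. Among those called lower, the share was highest in Rps6 (84.1%), Rps18 (79.6%) and Rps13 (78.8%). In the table, 100 pseudogene rows are named after 21 of the members, 65 of them had counts, and these amounted to 1.73% of the counts of the members, with the largest shares for Rpsa (19.7%) and Rps19 (18.6%). When these rows were added to their parent genes, 13 members were called lower, and 931 of 13619 genes were called in either direction. Exon bases are shared with another annotated gene in 11 members, for example 664 bases of Rps10 with RPS10-NUDT3 and Gm15420. Where strand is not known to have been used in counting, reads of such bases cannot be assigned with certainty.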

How the data were processed

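RNA of pools of embryos was sequenced by the authors as single reads of 72 bases. They trimmed them with Trimmomatic (checked with FastQC 0.11.9), aligned them to GRCm38 with HISAT2, sorted them with SAMtools and counted reads per Ensembl gene with htseq-count. The sources used here do not say whether counting used strand. The deposited counts were used as given, and the deposited RPKM values, which the authors computed from counts and gene width, only in alternatives. Columns followed the sample labels, and no authors' comparison was used.

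Genes were filtered with filterByExpr (13641 kept), scaled by TMM and tested, 3 against 4 libraries, by the quasi-likelihood test of edgeR 4.0.16 (R 4.3.3, limma 3.58.1, DESeq2 1.42.0) with Benjamini-Hochberg adjustment at 0.05. The common biological coefficient of variation was 1.16. The CPM of single libraries used TMM over all 8. Gene positions and coding lengths are those of GENCODE M21, and overlaps were computed with bedtools 2.31.1.

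The members and lists were chosen with earlier results of these data known. Values in each of the 7 injected libraries were given for members that passed the test and for the 2 largest and 2 smallest changes. They were also given for the 4 members with the highest and the 4 with the lowest mean CPM over these libraries. The value in the non-manipulated library was given for only some of these members. From other lists, members with the smallest p were named. A list of further small subunit genes is not reported here. Nothing in the labels says that libraries came from separate experiments, so p-values measure the spread between these libraries.

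Alternatives were size factors of DESeq2 (RLE), no scaling, no filter, DESeq2, limma-voom, limma on log2(RPKM + 0.1) and log2(RPKM + 1), a replicate block, leaving out each library, all 8 libraries, pseudogene rows added and, added after seeing the data, a fit without Trim-away libraries 2 and 3. RefSeq promoters (GRCm38.p6) matched 24 of 28 members.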

Additional observations from a re-analysis of the deposited data

Results flagged for a closer look

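In the buffer group, the CPM of Rps3a1 had 1 library far from the others. Buffer library 4 held 626 CPM and the others 315 to 364 CPM, so that the gap from library 4 to its neighbour was 0.842 of the whole range of the group, above Dixon's 95% critical value for 4 libraries. Chance alone flags about 1 in 20 such groups, and 28 members were examined. Without buffer library 4, Rps3a1 was still not called.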

How the results depend on the processing

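None of the members was called higher under any alternative, and each kept a negative log2 fold change in all 18. The count of members called lower (14) was 15 with RLE size factors, 13 without scaling, without the filter and with pseudogene rows added, 12 with all 8 libraries, 17 with limma-voom and 20 with limma on log2(RPKM + 0.1). It rose to 23 with DESeq2 and to 22 with limma on log2(RPKM + 1), and it was 4 to 15 when 1 library was left out. Calls among all genes in either direction shifted too, from 941 of 13641 in the main fit. They were 958 with RLE size factors, 913 without scaling and 1412 with limma-voom, each of 13641. They were 931 of 13619 with pseudogene rows added, 977 of 25623 without the filter and 795 of 20212 with all 8 libraries. DESeq2 called 2911 of 22698, limma on log2(RPKM + 0.1) 1307 of 10980 and limma on log2(RPKM + 1) 1405 of 10980. The labels do not say whether the replicate numbers pair the libraries. Same-numbered libraries had correlations of -0.062, 0.0063 and -0.00052 in their deviations from the group means. With so few libraries per group, these values cannot decide it. With a replicate block, 0 members and 0 of 13641 genes were called by edgeR, while 2050 genes had an unadjusted p under 0.05. The cause was not tested. The median log2 fold change stayed between -1.80 and -1.48 except with Trim-away library 1 alone, where it was -2.46 beside -1.24 over all genes.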
